A study of Homo sapiens with 12 samples.

Results

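The genes described here are the chemokine receptor CXCR4, the ligands CXCL12, MIF and CXCL14, the decoy receptor ACKR3 and the MIF receptor CD74. They are represented by every probe set that the platform annotation maps to 1 of these 6 symbols alone. That gave 15 of the 54675 probe sets on the Affymetrix U133 Plus 2.0 array, and 6 of the 19775 genes with a probe set of their own. CXCR4, CD74, ACKR3 and CXCL14 each had 3 probe sets, CXCL12 had 2 and MIF had 1 in this selection. No probe set with several symbols named any of the 6 genes.

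The arrays measured total RNA of IGROV-1, a human ovarian cancer cell line grown in RPMI medium with fetal calf serum. There were 4 groups of 3 arrays. Parental cells are not described as transfected. Mock cells carried a plasmid with a scrambled RNA and were a pool of clones. The groups labelled shCXCR4 (I) and shCXCR4 (II), called line I and line II below, carried plasmids with short hairpin RNAs against CXCR4, of which there were 2 different sequences, and came from individual clones. Mock cells and both lines were selected in 4 µg/ml puromycin for 30 days. The labels do not say which of the 2 hairpin sequences each line carried, or whether each line was 1 clone. Since the lines came from selected clones and Mock was a pool, an effect of the hairpin and a property of the clone cannot be told apart in any comparison below. The labels do not say whether the 3 arrays of a group came from separate cultures, so p-values measure only array-to-array spread within a group, which could be technical.

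CXCR4 is a G protein-coupled receptor on the cell surface that binds the chemokine CXCL12, couples mainly to inhibitory G proteins and drives directed migration, and it is expressed by many ovarian cancer cells. ACKR3 binds the same ligand without the usual G protein signalling and removes it from the surroundings, so it is called a decoy or scavenger receptor. MIF is a cytokine that binds CD74 and can also engage CXCR4, and CD74 is otherwise known as the invariant chain that escorts class II antigen-presenting molecules. CXCL14 is a chemokine that has been reported to bind CXCR4.

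The deposited value of a probe set is a log2 expression value, so a difference of 1 between arrays is a 2-fold difference in signal. The 12 arrays had medians of 4.25 to 4.38, minima of 1.30 to 1.44 and maxima of 13.31 to 13.36. The Mock arrays had the lowest medians, 4.25 to 4.28, beside 4.30 to 4.38 on the other arrays. Values of different probe sets depend on their probes and are not set against each other here. Among the 12 markers of ovarian epithelial cancer cells, EPCAM had group means of 11.63 to 11.98 and PAX8 of 10.05 to 10.21. MUC16, the CA125 antigen, had group means of 2.80 to 3.25. PTPRC, which defines leukocytes, had group means of 3.01 to 3.13. Other leukocyte markers are described further on, with group means of 5.09 to 5.48 for CD3E and of 3.11 to 3.22 for CD14.

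The CXCR4 gene lies on chromosome 2. The 250 bases before its transcription start are shown because CXCR4 is the gene targeted, and the promoter carries motifs of factors whose own mRNA is described further on. The sequence is from RefSeq, GRCh38.p14, minus strand, chr2:136118150-136118399, before the most upstream of 3 starts listed. Capitals mark every match to CGCATGCG, the core of the NRF1 motif, to TATAAA, the usual letters of the box that marks some promoters, to GCGTG, a hypoxia response core, and to GGGCGG, the SP1 motif called GC box, on either strand.
CXCR4 promoter: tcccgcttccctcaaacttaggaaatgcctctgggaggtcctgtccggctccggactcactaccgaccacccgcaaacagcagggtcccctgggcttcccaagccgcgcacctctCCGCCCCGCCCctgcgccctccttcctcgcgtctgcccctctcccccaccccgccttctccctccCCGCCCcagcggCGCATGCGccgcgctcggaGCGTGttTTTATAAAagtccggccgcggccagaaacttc
The NRF1 core occurred once in it, in comparison with 1.73% of the 35116 human promoter windows of this length that hold it at all. TATAAA occurred 2 times, in overlapping matches on opposite strands, and was present in 10.7% of windows. There were 3 GC boxes, a motif present in 42.6% of windows, and 1 GCGTG, present in 32.2%. Neither CACGTG nor ACGTG was found, which were present in 6.34% and 18.5% of windows. These matches describe letters in the window, not bound sites.

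CXCR4 mRNA was lower in both lines than in both controls on all 3 of its probe sets. The log2 change from Mock ran from -1.07 to -1.49 in line I and from -1.24 to -1.96 in line II. The suffix of a probe set says how specific it is: the probes of an _at set match 1 transcript, those of an _s_at set may match several transcripts, and those of an _x_at set may in part match unrelated ones. CXCR4 had 1 set of each kind, and the change was largest on the _at set in both lines. In group mean Mock read above Parental, without passing the test, and line II below line I. In such bulk RNA, fewer cells with the transcript and less transcript per cell cannot be told apart.

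On the _at probe set, whose full identifier heads its panel in the plot of CXCR4 by array, the Mock arrays read 8.51, 8.60 and 8.64. The Parental arrays read 8.42, 8.28 and 8.30. Line I read 7.06, 7.10 and 7.11, and line II read 6.39, 6.73 and 6.75. All 4 groups were thus separate on this probe set, in the order Mock, Parental, line I and line II, with no array of one within the range of another. Line I was lower than Mock by a log2 change of -1.49 (SE 0.09, n = 3 against 3, adjusted p = 8.67e-08, limma), that is 35.6% of the Mock signal with a 95% interval of 31.1% to 40.7%. Line II stood at -1.96 (SE 0.09, adjusted p = 4.39e-09, limma), or 25.7% of Mock with an interval of 22.5% to 29.4%. Both lines were also below untransfected cells, at 42.3% of the Parental signal in line I (adjusted p = 6.58e-07, limma) and 30.6% in line II (adjusted p = 2.38e-08, limma).

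On the _x_at probe set (209201_x_at), the Mock arrays read 7.90, 7.91 and 7.66 and the Parental arrays 7.65, 7.49 and 7.42. Line I read 6.52, 6.83 and 6.75, and line II read 6.30, 6.38 and 6.65. No array of either line reached a control array, while the lines overlapped each other. The log2 change against Mock was -1.12 in line I (adjusted p = 1.29e-05, limma) and -1.38 in line II (adjusted p = 1.72e-06, limma), leaving 45.9% and 38.5% of the Mock signal. Against Parental it was -0.82 (adjusted p = 0.000212, limma) and -1.08 (adjusted p = 2.15e-05, limma).

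On the _s_at probe set (211919_s_at), Mock read 7.81, 7.96 and 7.64 and Parental 7.54, 7.25 and 7.54. Line I read 6.62, 6.73 and 6.86, and line II read 6.71, 6.50 and 6.47. Again the lines lay below every control array and overlapped each other. Line I changed by -1.07 against Mock (adjusted p = 1.46e-05, limma) and line II by -1.24 (adjusted p = 3.32e-06, limma), at 47.7% and 42.3% of the Mock signal. Against Parental the values were -0.71 (adjusted p = 0.00056, limma) and -0.88 (adjusted p = 0.000101, limma).

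**Figure D1:**
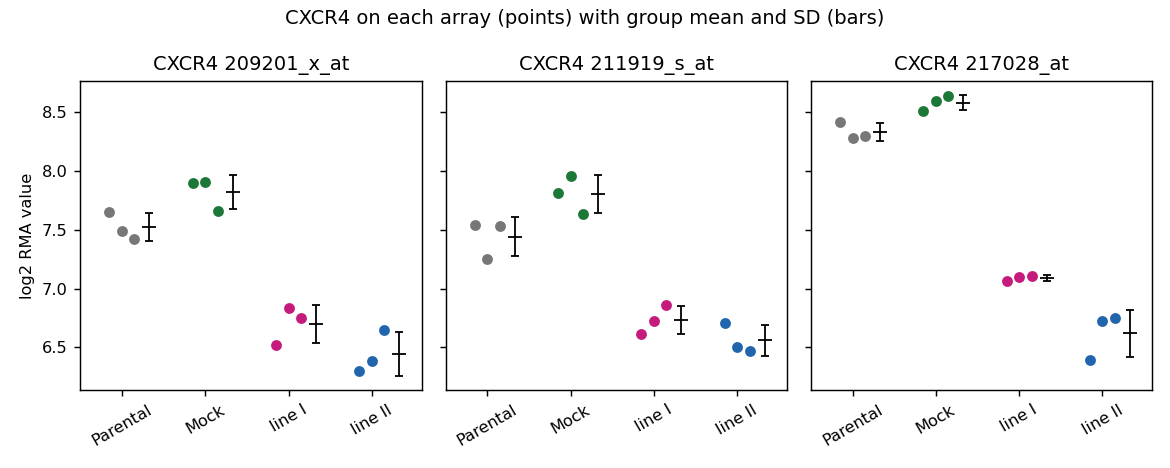
Log2 value (y axis) of the 3 CXCR4 probe sets on each of the 12 arrays, by group (x axis); points are arrays, and bars are the group mean with SD (n = 3). Both lines lie below all Parental and Mock arrays in every panel, and line I and line II separate from each other only on the _at probe set.

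The signal that remained was a smaller percentage of Mock on the _at probe set than on the other CXCR4 sets. Within each array, the difference of the _x_at probe set minus the _at probe set shifted by 0.37 from Mock to line I and by 0.58 from Mock to line II. For the _s_at probe set minus the _at probe set the shifts were 0.42 and 0.72. In each of these 4 contrasts no line array overlapped a Mock array, and the exact two-sided permutation p was 0.1, the smallest that 3 arrays against 3 can give. Between the _x_at probe set and the _s_at probe set the shifts were -0.05 and -0.14, with an exact two-sided permutation p of 0.6 in both lines. The sources used here give neither the probes that make up each set nor the positions that the hairpins target in the transcript.

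Line I retained more CXCR4 signal than line II on the _at probe set, by 0.47 (SE 0.09, 95% interval 0.28 to 0.66, adjusted p = 0.0115, limma), and in 3 of 3 arrays. With only these 2 groups in the fit, the same difference had an adjusted p from limma of 0.0546. It was 0.26 on the _x_at probe set (95% interval 0.02 to 0.49, adjusted p = 0.291, limma) and 0.17 on the _s_at probe set (95% interval -0.06 to 0.40, adjusted p = 0.495, limma). The order of the lines was thus resolved on 1 of 3 probe sets.

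Mock lay above Parental in group mean on all 3 CXCR4 probe sets, by 0.25 on the _at probe set (95% interval 0.06 to 0.44, adjusted p = 0.114, limma). The other differences were 0.30 on the _x_at probe set (adjusted p = 0.127, limma) and 0.36 on the _s_at probe set (adjusted p = 0.0558, limma). None passed the test, although the _s_at probe set did under 6 of 19 alternative settings and the _at probe set under 2. The control chosen therefore moved the estimate of remaining CXCR4 on the _at probe set from 35.6% of Mock to 42.3% of Parental in line I.

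At an adjusted p under 0.05, 4 of the 15 probe sets were called in line I against Mock, where 14.2% of all 54613 probe sets tested were called. In line II against Mock 3 of 15 were called against 16.2% of all. Against Parental 3 of 15 were called in each line, beside 9.94% of all in line I and 10.1% in line II. Mock against Parental had 0 of 15 called with limma, beside 8% of all, and 6 of 15 at an unadjusted p under 0.05. Line I against line II had 1 of 15, beside 3.02% of all. Apart from CD74 209619_at in line I against Mock, every called probe set was a CXCR4 one. Of the other 12 probe sets 1 was called in line I against Mock and 0 in line II, and 3 and 1 had an unadjusted p under 0.05. The share of all probe sets at an unadjusted p under 0.05 was not counted, so these unadjusted counts have no baseline here.

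Among the ligands, CXCL12 differed by no more than 0.15 in either line from Mock. On 203666_at the Mock arrays read 4.85, 4.53 and 4.83, line I read 4.85, 4.73 and 4.97, line II read 4.86, 4.94 and 4.85, and Parental read 4.78, 4.74 and 4.91. Line I overlapped Mock, while the lowest line II array lay just above the highest Mock array. The differences from Mock were 0.11 (95% interval -0.09 to 0.31, adjusted p = 0.474, limma) and 0.15 (95% interval -0.05 to 0.35, adjusted p = 0.301, limma). The second CXCL12 probe set, 209687_at, read 1.83 to 2.30 over all 12 arrays, within the lowest values on the array, and all groups overlapped. Its differences from Mock were -0.02 in line I (95% interval -0.27 to 0.23) and 0.01 in line II (95% interval -0.24 to 0.26). No detection call is given in the sources used here, so whether such low values reflect any CXCL12 transcript cannot be read from them.

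MIF differed little between the groups, with a range of 0.26 over all 12 arrays. On 217871_s_at Parental read 12.014, 11.997 and 11.986, Mock read 12.075, 12.100 and 12.127, line I read 12.064, 12.110 and 12.146, and line II read 12.175, 12.158 and 12.250. Line II lay above every other array, Parental below every other array, and line I and Mock overlapped. Line II differed from Mock by 0.09 (95% interval -0.04 to 0.23, adjusted p = 0.327, limma) and from Parental by 0.20 (95% interval 0.06 to 0.33, adjusted p = 0.0615, limma). The latter difference passed the test in 3 of 19 alternatives, with an adjusted p from limma of 0.0473 when only probe sets with a single symbol were tested. Line I differed from Mock by 0.01 (95% interval -0.13 to 0.14, adjusted p = 0.964, limma). The 95% intervals against Mock thus reached no further than 0.23 in either line.

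CXCL14 was read by 3 probe sets, none of which passed the test. On 237038_at Mock read 2.95, 3.21 and 3.24, Parental 3.44, 3.38 and 3.38, line I 3.38, 3.35 and 3.47, and line II 3.20, 3.48 and 3.24. Line I lay above Mock without overlap, by 0.27 (95% interval 0.07 to 0.46, adjusted p = 0.0731, limma), but differed from Parental by 0.00 (95% interval -0.20 to 0.20). Line II differed from Mock by 0.17 (adjusted p = 0.217, limma). Mock was the low group here, at -0.27 from Parental (95% interval -0.47 to -0.07, adjusted p = 0.101, limma).

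The probe set 222484_s_at of CXCL14 gave 3.83, 3.42 and 3.82 in line I and 3.48, 3.56 and 3.65 in line II. Mock gave 3.58, 3.53 and 3.44 and Parental 3.67, 3.82 and 3.92. Line I spanned the Mock values, and without its second array its difference from Mock, 0.17 with all arrays, rose to 0.31 (adjusted p = 0.0490, limma). It passed in only this 1 of 18 alternatives, and line I differed from Parental by -0.11 (adjusted p = 0.608, limma). Mock and line II lay below all Parental arrays, by 0.29 (adjusted p = 0.127, limma) and 0.24 (adjusted p = 0.185, limma). The values of 218002_s_at ran from 2.30 to 2.84 over all arrays, with differences from Mock of 0.09 and 0.08, and its groups overlapped. Every CXCL14 value lay below the lowest array median, 4.25, so without a detection call the presence of its transcript cannot be read from them.

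The decoy receptor ACKR3 also had no called probe set. On 1559114_a_at Mock read 2.96, 2.93 and 2.98, line I 3.25, 2.98 and 3.13, line II 3.03, 3.20 and 3.03, and Parental 3.11, 3.00 and 2.95. Both lines lay above all Mock arrays, by 0.17 (95% interval -0.01 to 0.34, adjusted p = 0.211, limma) and 0.13 (95% interval -0.05 to 0.31, adjusted p = 0.308, limma), and overlapped Parental. On 212977_at line I differed from Mock by -0.12 and line II by -0.01, and on 232746_at by 0.06 and 0.09, with overlapping arrays. These 2 probe sets read 2.14 to 2.51 and 2.44 to 2.75 over all arrays. The 3 probe sets thus differed in sign in both lines, and no change of ACKR3 was detectable. Every ACKR3 value lay below the lowest array median, 4.25, and no detection call is given. Such values therefore do not show whether any ACKR3 transcript was present.

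CD74 gave the only call outside CXCR4. On 209619_at the Mock arrays read 4.93, 4.58 and 4.82, line I read 5.21, 5.03 and 5.08, line II read 5.15, 5.11 and 4.93, and Parental read 5.08, 4.97 and 4.998. Mock was the low group, and the lines lay in or near the Parental range. Line I was higher than Mock by 0.33 (SE 0.09, 95% interval 0.13 to 0.53, adjusted p = 0.0303, limma), in 3 of 3 arrays. Line II differed from Mock by 0.29 (95% interval 0.08 to 0.49, adjusted p = 0.0529, limma), and this difference passed in 5 of 19 alternatives, with an adjusted p from limma of 0.0254 without the first Mock array, 0.0276 without the third array of line II, 0.0291 with the upper 50% of probe sets, 0.0337 with the replicate block and 0.0463 with single-symbol probe sets. Against Parental the differences were 0.09 (adjusted p = 0.646, limma) and 0.05 (adjusted p = 0.817, limma), and Mock differed from Parental by -0.24 (adjusted p = 0.150, limma).

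The call in line I rested on single arrays and on the scaling. Without the second Mock array the difference was 0.23 (adjusted p = 0.134, limma), and without the first array of line I it was 0.28 (adjusted p = 0.118, limma). It also ended without the third array of line I, without the third Mock array, with arrays centred on their medians and with only the 2 groups fitted, and held in 13 of 19 alternatives. The other CD74 probe sets did not pass. On 1567627_at Mock read 4.67, 4.66 and 4.79, line I 4.91, 4.91 and 5.02, line II 5.11, 5.03 and 4.64, and Parental 4.86, 4.73 and 4.80. Line I lay above both controls and line II spanned them. The differences from Mock were 0.24 (adjusted p = 0.145, limma) and 0.22 (adjusted p = 0.164, limma). Without the third array of line II this probe set was called in both lines, at 0.24 (adjusted p = 0.0351, limma) and 0.36 (adjusted p = 0.00702, limma). On 1567628_at all arrays lay between 2.96 and 3.22, and the lines differed from Mock by 0.01 and -0.02.

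**Figure D2:**
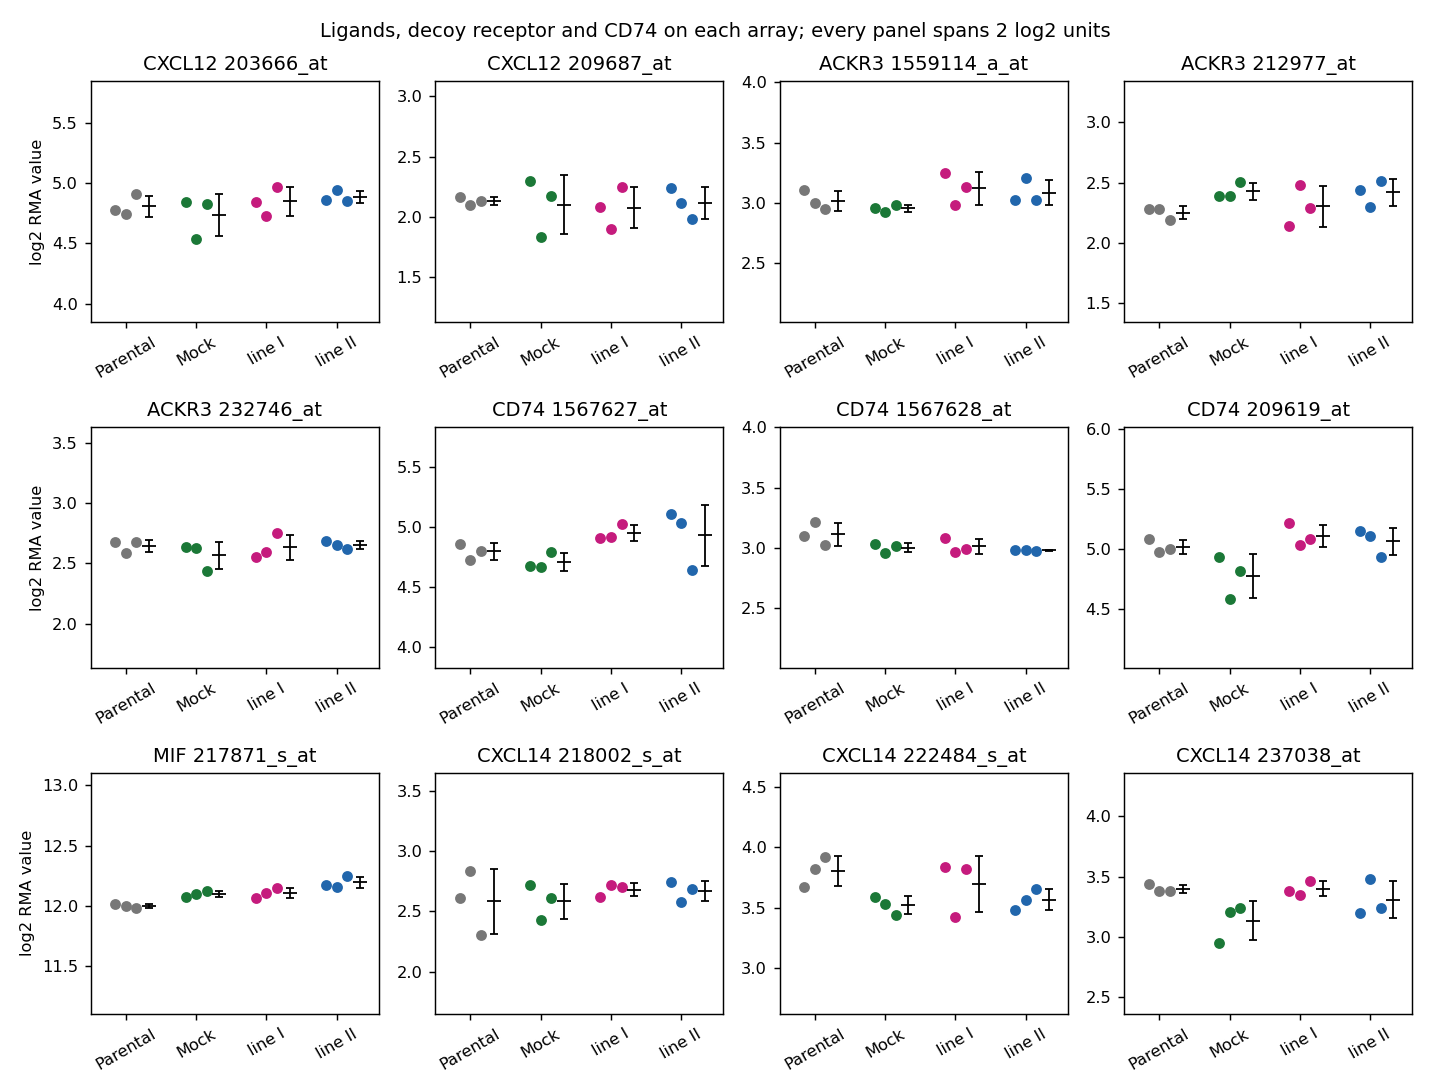
Log2 value (y axis) of the 12 probe sets of CXCL12, ACKR3, CD74, MIF and CXCL14 on each array, by group (x axis), with group mean and SD (n = 3); every panel spans the same height of 2 log2 units. Groups lie close together in all panels, and in the panel of CD74 209619_at the Mock arrays, 4.58 to 4.93, sit below line I, 5.03 to 5.21.

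Over the 12 probe sets other than CXCR4, differences from Mock ran from -0.12 to 0.33 in line I, with a median of 0.10, and from -0.02 to 0.29 in line II, with a median of 0.09. The medians over all probe sets were 0.02 and 0.03. In each line 10 of 12 lay above Mock, but 9 and 8 did after quantile normalization and 7 and 8 once the arrays were centred on their medians. Since both lines were set against the same Mock arrays, their differences are not independent. Against Parental the medians were 0.05 and 0.06. No 95% interval against Mock reached beyond 0.53 in line I, a 1.45-fold difference, or 0.49 in line II, a 1.402-fold difference, for these 12 probe sets.

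**Figure D3:**
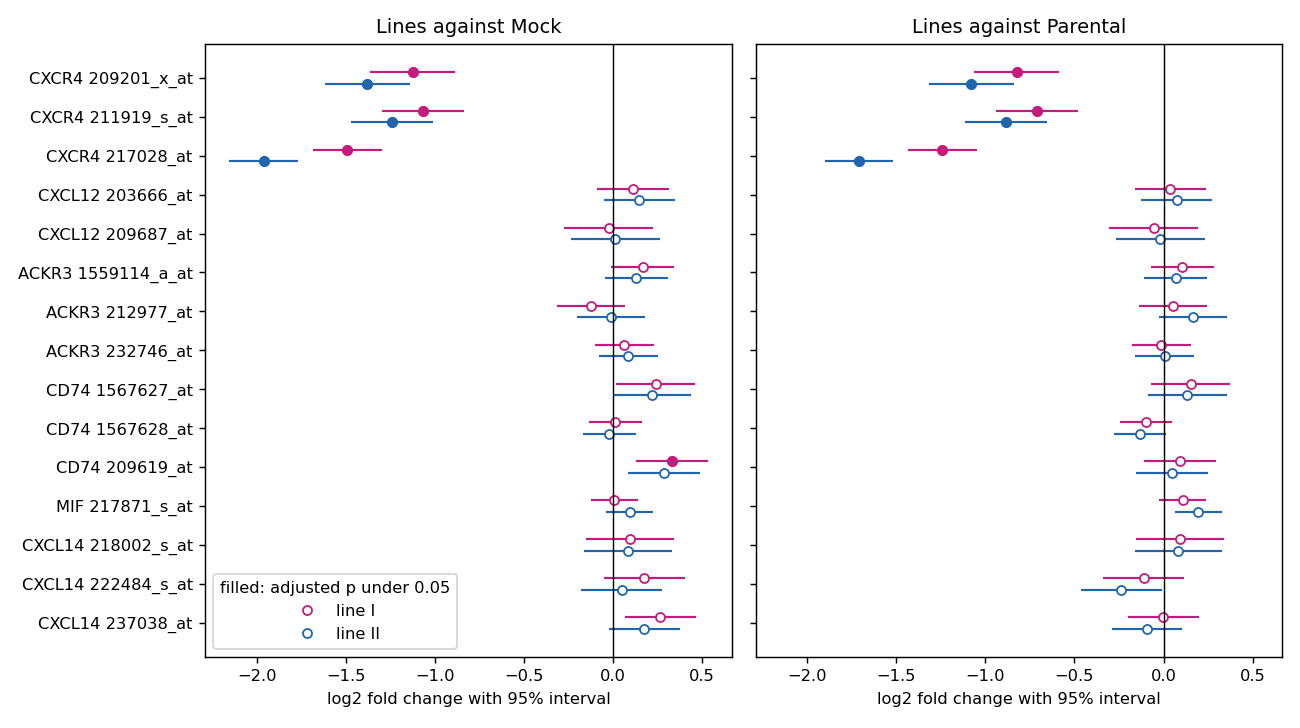
Log2 difference (x axis) of line I and line II from Mock (left) and from Parental (right) for the 15 probe sets, with 95% intervals from limma; filled points had an adjusted p under 0.05. The 3 CXCR4 probe sets lie between -1.96 and -0.71, and the other 12 lie between -0.24 and 0.33.

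Genes that act with CXCR4 were read from lists, each gene by its brightest single-symbol probe set. Of the 19775 genes so read, 7.67% were called higher and 11.3% lower in line I against Mock, and 8.19% higher and 12.6% lower in line II. The share of called genes that were higher stood at 40.3% for line I and 39.4% for line II, and changed to 53.5% and 53.0% after quantile normalization and to 22.3% and 19.8% after median centring. The balance of higher and lower calls thus moved with the scaling. The genes called in either direction were 15.5% and 16.4% after quantile normalization and 20.3% and 23.3% after median centring. When the probe sets of a gene were averaged, 21.6% of all genes were called in line I and 23.0% in line II. Of those, 45.2% and 47.5% were higher. The median over all genes was 0.02 in both lines. All these shares are of adjusted calls, so the list counts at an unadjusted p given below have no share over all genes beside them.

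G protein subunits, receptor kinases, arrestins and RGS proteins carry or end the signals of G protein-coupled receptors. In this list 0 of 20 measured genes rose and 3 fell in line I against Mock, and 0 rose and 2 fell in line II, by limma. Under median centring 5 and 4 fell, and 6 and 4 when the probe sets of a gene were averaged. At an unadjusted p under 0.05, 0 rose in line I and 2 in line II, and after quantile normalization 1 rose in line II. The list's median difference was -0.08 and -0.07. RGS2, which speeds the switching-off of G proteins, fell by 0.56 in line I (adjusted p = 0.000721, limma) and by 0.94 in line II (adjusted p = 8.72e-06, limma). Mock, however, was the high group for RGS2, with a mean of 6.52 beside 5.58 in Parental, and line II also had a mean of 5.58. RGS2 in line I was above Parental, by 0.38 (adjusted p = 0.0132, limma), a call that ended without the first array of either group.

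For sorting and degradation of the receptor, 1 of 13 genes fell in line I and 3 in line II, 0 rose in either by limma (1 and 0 at an unadjusted p under 0.05), and the medians were -0.05 and -0.15. All these calls ended under quantile normalization, where 1 gene rose in line I, and 6 fell in line II under median centring. USP8, a deubiquitinase of endosomes, differed from Mock by -0.23 (adjusted p = 0.0301, limma) and -0.22 (adjusted p = 0.0344, limma). Mock was the high group for USP8, since the lines differed from Parental by -0.02 (adjusted p = 0.928, limma) and -0.01 (adjusted p = 0.973, limma) and Mock by 0.21 (adjusted p = 0.0608, limma). DTX3L, a ubiquitin ligase, differed from Mock by 0.01 in line I and by -0.38 in line II (adjusted p = 0.00687, limma), where it was -0.27 from Parental (adjusted p = 0.0547, limma).

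Among kinases and effectors downstream, 3 of 25 rose and 2 fell in line I, and 1 rose and 5 fell in line II, with medians of -0.08 and -0.05. Under median centring 2 rose and 7 fell in line I, and 1 rose and 7 fell in line II. After quantile normalization 2 rose and 2 fell in line I, and 2 rose and 3 fell in line II, and with averaged probe sets 3 and 2 rose and 4 fell in each line. STAT3, a transcription factor activated by cytokine receptors, fell by 0.42 in line I (adjusted p = 0.000644, limma) and by 0.71 in line II (adjusted p = 6.63e-06, limma). ROCK1, a kinase of the contractile cytoskeleton, fell by 0.41 (adjusted p = 0.00103, limma) and by 0.49 (adjusted p = 0.000297, limma). PTK2B, a focal adhesion kinase relative, rose by 0.36 (adjusted p = 0.0113, limma) and by 0.40 (adjusted p = 0.00643, limma). Each of these calls against Mock held in 19 of 19 alternatives. From Parental STAT3 differed by -0.22 in line I (adjusted p = 0.0439, limma), a call that held in 8 of 19 alternatives and ended with any Parental or Mock array left out, and by -0.52 in line II (adjusted p = 0.000148, limma). ROCK1 and PTK2B were between the Mock and line values in Parental cells, at group means of 8.90 and 4.66. Against Parental ROCK1 differed by -0.19 (adjusted p = 0.105, limma) and -0.27 (adjusted p = 0.022, limma), the latter ending with any Parental array or the first or second array of line II left out. PTK2B differed by 0.15 (adjusted p = 0.326, limma) and 0.19 (adjusted p = 0.186, limma).

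Of the 11 measured regulators of the CXCR4 gene, 1 rose and 3 fell in line I, and 0 rose and 3 fell in line II by limma, with medians of -0.09 and -0.15. At an unadjusted p under 0.05, 4 rose in line II, and 2 were called higher there after quantile normalization and 3 with averaged probe sets. EPAS1, the hypoxia factor HIF-2 alpha, fell by 0.35 (adjusted p = 0.00943, limma) and by 0.43 (adjusted p = 0.00273, limma) against Mock, and was further below Parental, at -1.03 and -1.11. Mock itself lay below Parental for EPAS1, at -0.68 (adjusted p = 9.3e-05, limma). CXCR4 read higher in Mock than in Parental in group mean, without passing the test. A part of EPAS1 in the CXCR4 values was not tested. SP1, whose GC box occurs 3 times in the window shown, differed by -0.23 (adjusted p = 0.0449, limma) and -0.29 (adjusted p = 0.0143, limma), and neither call held after quantile normalization. The SP1 call held in 8 of 19 alternatives in line I, ending with any array of line I or Mock left out, and in 16 of 19 in line II. From Parental SP1 differed by -0.08 (adjusted p = 0.604, limma) and -0.13 (adjusted p = 0.269, limma). NRF1 differed from Mock by -0.31 (adjusted p = 0.0178, limma) in line I and by -0.15 (adjusted p = 0.213, limma) in line II, and from Parental by -0.12 (adjusted p = 0.434, limma) and 0.04 (adjusted p = 0.807, limma).

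Proteases and matrix partners of CXCL12 had 4 of 13 genes higher and 1 lower in line I, and 2 higher and 2 lower in line II, with medians of 0.10 and 0.03. The rises of both lines ended under median centring. EXT1, which builds heparan sulfate chains, fell by 0.39 in line I (adjusted p = 0.00455, limma) and in line II (adjusted p = 0.00454, limma). EXT1 was also below Parental, by a log2 change of -0.64 in both (adjusted p = 0.000106 and 0.000119, limma). The 12 other receptors and ligands of the axis had 0 calls in line I by limma, 2 at an unadjusted p under 0.05, and 1 call in line II, with medians of 0.02 and 0.00. With averaged probe sets 3 rose in line I and 2 in line II. That call was ADM, the peptide adrenomedullin, which fell by 0.45 in line II (adjusted p = 0.00454, limma) and differed by -0.06 in line I. Against Parental ADM was instead higher, by 0.74 in Mock (adjusted p = 0.000147, limma) and by 0.67 in line I (adjusted p = 0.00023, limma), and it differed by 0.28 in line II (adjusted p = 0.0681, limma).

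Among the CD74 partners and class II genes, 3 of 16 rose and 4 fell in line I, and 1 rose and 6 fell in line II, with medians of 0.06 and -0.02. After quantile normalization 1 rose and 2 fell in each line, and under median centring 1 rose in each and 5 and 7 fell. With averaged probe sets 1 rose in each line and 3 and 5 fell. CIITA, the transactivator of the class II genes and of CD74, rose by 0.37 in line I (adjusted p = 0.00689, limma) and by 0.42 in line II (adjusted p = 0.0035, limma), in 19 of 19 alternatives. Its group means were 4.55 for Mock, 4.71 for Parental, and 4.93 and 4.97 for the lines. From Parental CIITA differed by 0.21 (adjusted p = 0.128, limma) and 0.26 (adjusted p = 0.0599, limma). RFXAP, which helps CIITA to reach class II promoters, differed by -0.41 (adjusted p = 0.00762, limma) and -0.33 (adjusted p = 0.0239, limma). The latter call held in 14 of 19 alternatives. It ended after quantile normalization, with only the 2 groups fitted, and without the first array of line II or the first or second Mock array. The differences of RFXAP from Parental were -0.24 (adjusted p = 0.122, limma) and -0.16 (adjusted p = 0.292, limma). HLA-DMA, which loads peptides onto class II molecules, fell by 0.49 (adjusted p = 0.0112, limma, ending without the second Mock array) and by 0.68 (adjusted p = 0.00139, limma). In Parental cells HLA-DMA had a mean of 4.49, below Mock at 5.65 and both lines, at 5.16 and 4.97. HLA-DRA, the class II chain that CD74 escorts, had group means of 4.00 to 4.23 and passed the test in neither line.

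The 250 bases before the start of CD74 are shown beside those of CXCR4 since CD74 209619_at was the other probe set called. They are from RefSeq, GRCh38.p14, minus strand, chr5:150412911-150413160, with the same motifs and CCAAT in capitals.
CD74 promoter: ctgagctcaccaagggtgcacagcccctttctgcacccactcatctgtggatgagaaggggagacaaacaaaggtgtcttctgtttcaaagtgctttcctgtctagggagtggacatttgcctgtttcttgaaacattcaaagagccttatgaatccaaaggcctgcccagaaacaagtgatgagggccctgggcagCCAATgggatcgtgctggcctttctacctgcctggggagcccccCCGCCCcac
The window held 1 CCAAT, present in 32.0% of windows, and 1 GC box, and none of the other motifs. Its GC content was 54.4%, in comparison with 68% for CXCR4 and a median of 58% over all windows.

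Leukocytes are cells in which CD74 and CXCR4 are abundant, and 10 of their markers were listed. Of 8 measured markers 3 rose, 5 did not pass and 0 fell in each line against Mock by limma, and 4 rose and 0 fell at an unadjusted p under 0.05. In line II 1 rose after quantile normalization, median centring or averaging of probe sets. Against Parental 0 were called in either line by limma (0 and 1 at an unadjusted p under 0.05). Of all genes 13.5% were called in line I against Parental and 13.1% in line II. In Mock against Parental 1 of 8 fell, beside 11.3% of all genes called in either direction. The gene that fell was NCAM1, an adhesion molecule also used as a marker of natural killer cells. NCAM1 differed by -1.32 in Mock from Parental (adjusted p = 3.34e-07, limma), and was above Mock by 1.26 in line I (adjusted p = 4.13e-07, limma) and by 1.47 in line II (adjusted p = 8.61e-08, limma). The other calls differed between the lines, but 0 of the 8 markers were called in line I against line II by limma, beside 4.49% of all genes. CD3E of T cells, at 0.39 (adjusted p = 0.0246, limma), and the actin-bundling LCP1, at 0.34 (adjusted p = 0.0103, limma), passed in line I. The integrin ITGAM, at 0.40 (adjusted p = 0.0374, limma), and the B cell gene CD79A, at 0.39 (adjusted p = 0.04, limma), passed in line II. These 4 genes had group means of 4.05 to 5.54. ITGAM differed from Mock by 0.37 in line I (adjusted p = 0.0565, limma) and CD3E by 0.23 in line II (adjusted p = 0.150, limma). The remaining PTPRC, CD14 and LYZ had group means of at most 3.22 and did not pass. The mean of the list ran from 4.32 to 4.48 on the Mock arrays, where CD74 209619_at was also lowest, 4.63 to 4.68 on Parental, 4.66 to 4.75 in line I and 4.72 to 4.76 in line II. Without NCAM1, an alternative chosen after its values were seen, it ran from 3.90 to 4.04 on Mock, 4.06 to 4.11 on Parental, 4.11 to 4.19 in line I and 4.14 to 4.18 in line II. The part of these values in the CD74 result was not tested. The Mock arrays also had the lowest array medians, and the part of this in their low readings was not tested.

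For endothelial cells and fibroblasts, 1 of 12 markers rose and 1 fell in line I, and 1 rose and 0 fell in line II by limma (2 fell at an unadjusted p under 0.05), with list means of 4.38 to 4.55 over all arrays. With averaged probe sets 0 rose in either line by limma, and under median centring 2 fell in line II. PECAM1, an endothelial adhesion molecule, rose by 0.50 (adjusted p = 0.00161, limma) and by 0.40 (adjusted p = 0.00777, limma), but differed from Parental by 0.24 (adjusted p = 0.123, limma) and 0.13 (adjusted p = 0.382, limma). CDH5, the endothelial cadherin, differed by -0.59 (adjusted p = 0.0128, limma) and -0.37 (adjusted p = 0.0898, limma), the former ending without the second Mock array or the third of line I. From Parental CDH5 differed by -0.70 in line I (adjusted p = 0.00516, limma), in 18 of 18 alternatives. In line II it differed by -0.49 (adjusted p = 0.0451, limma), in 10 of 18. Of 12 markers of ovarian epithelial cancer 2 rose and 2 fell in line I, and 0 rose and 5 fell in line II by limma. At an unadjusted p under 0.05, 0 rose in line II, and 1 was called higher there after quantile normalization. With averaged probe sets 3 rose and 1 fell in line I, and 0 rose and 3 fell in line II. KRT7, a keratin, fell by 0.67 (adjusted p = 4.5e-05, limma) and by 1.00 (adjusted p = 1.06e-06, limma) against Mock. Mock was the high group for KRT7, by 0.86 over Parental (adjusted p = 6.35e-06, limma), and the lines differed from Parental by 0.19 (adjusted p = 0.165, limma) and -0.14 (adjusted p = 0.292, limma). MSLN, mesothelin, fell by 0.62 (adjusted p = 0.00453, limma) and by 1.26 (adjusted p = 1.59e-05, limma) against Mock, and differed from Parental by -0.30 (adjusted p = 0.174, limma) and -0.94 (adjusted p = 0.000271, limma). MUC1 rose by 0.99 in line I (adjusted p = 7.68e-06, limma) and differed by 0.01 in line II, and line I was above Parental by 1.14 (adjusted p = 2.03e-06, limma).

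**Figure D4:**
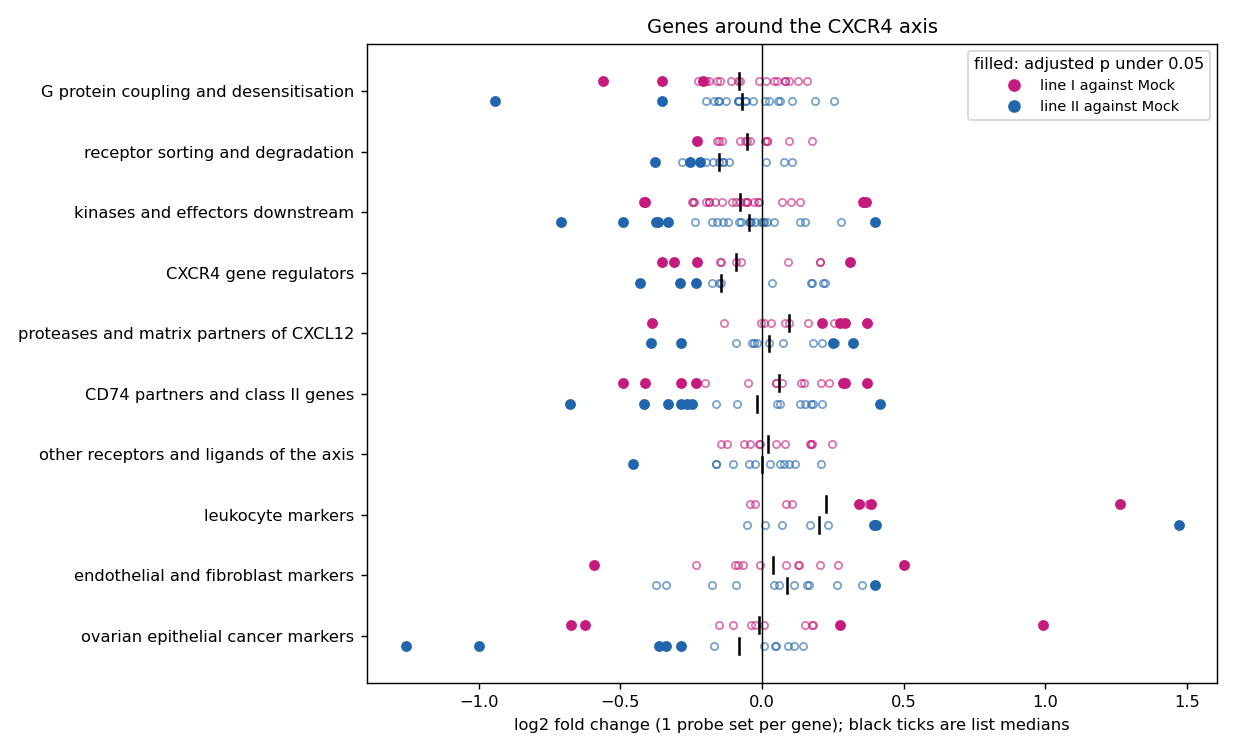
Log2 difference from Mock (x axis) of each measured gene in 10 lists (y axis) for line I and line II; filled points had an adjusted p under 0.05, and black ticks are the list medians. List medians lie between -0.15 and 0.22, and most genes are not past the test.

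The genes whose group means most resembled those of CXCR4 were found by the root mean square difference over the 4 groups, each gene's means taken less their average. Over 19769 genes outside the 6 the median of that difference was 0.836 on the log2 scale. The closest was IRX3, a homeobox transcription factor, at 0.0616, whose group means were 7.18 for Mock, 6.78 for Parental, and 5.69 and 5.18 for the lines. PRKD3, a kinase of the protein kinase D family, followed at 0.101, and MDFIC, a modulator of transcription factors, at 0.143. FZD1, a Wnt receptor, lay at 0.176 and FLRT3, a membrane adhesion protein, at 0.178.

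These 5 genes were selected for resembling CXCR4, so their changes are a description. IRX3 differed from Mock by -1.48 in line I and by -2.00 in line II, and PRKD3 by -1.29 and -1.69. MDFIC differed by -1.50 and -1.62. FZD1 differed by -1.00 and -1.69, and FLRT3 by -1.29 and -1.84. For FZD1 and FLRT3 Mock differed from Parental by -0.05 and -0.23, while CXCR4 read higher in Mock. None of these Mock to Parental differences passed the test in the reported fit. IRX3 did pass in Mock against Parental, at 0.40 (adjusted p = 0.0222, limma), in 15 of 19 alternatives, and PRKD3 and MDFIC did not. The differences of both lines from Mock all passed for these 5 genes, which were selected for such a pattern. The likeness rests on 4 group means and says nothing of shared control.

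**Figure D5:**
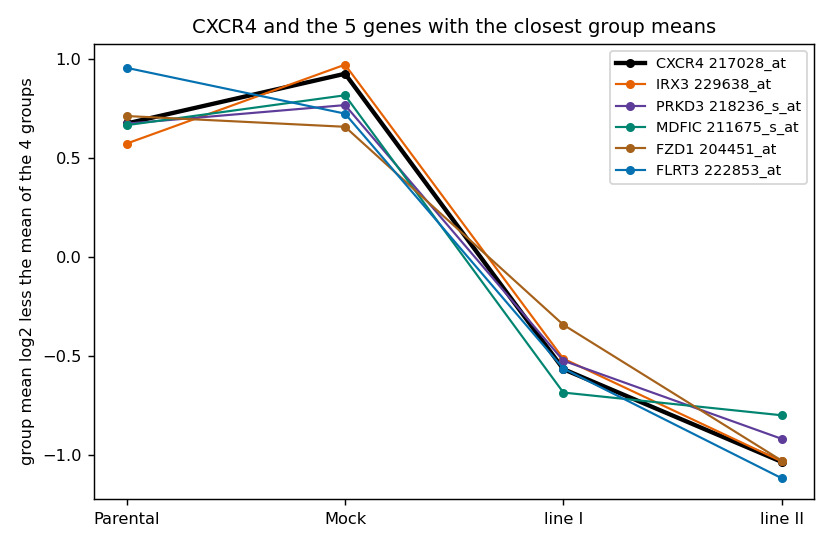
Group mean log2 value less the mean of the 4 groups (y axis) for the CXCR4 _at probe set and the 5 genes closest to it, by group (x axis). All 6 genes are high in Parental and Mock and low in line I and line II, and IRX3, at 0.0616, follows CXCR4 most closely.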

How the data were processed

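Expression was measured on 12 Affymetrix arrays of total RNA, 6 µg per array. The authors deposited log2 values, which RMA in R 2.6.0 produced per the submitters' processing notes. The chip definition and background step are not given in sources used here. No further normalization was applied. Of 54675 probe sets, 62 controls were left out and 54613 were fitted with lmFit and eBayes of limma 3.58.1 (R 4.3.3), with a mean per group over all 12 arrays and degrees of freedom of 8 (residual) and 5.95 (prior), with Benjamini-Hochberg adjustment over all and a threshold of 0.05. Intervals are 95% from limma's standard error. The fit was tested on simulated data. Replicates carry numbers but no stated batch, so no block was used. Named genes are the members, the 5 closest in group means and, per list, up to 3 called alike in both lines against Mock and the largest change in each. NRF1, HLA-DRA and markers that define a tissue were named outside this rule, after their values were seen. Members and lists were chosen with earlier results of these data known. Alternatives were quantile normalization, median centring, other filters, a trended and robust variance, only the groups compared, a replicate block and each array left out.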

Additional observations from a re-analysis of the deposited data

Results flagged for a closer look

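The fall of CXCR4 on its _at probe set against Mock differed between the lines. It was smaller in line I than in line II by 0.47 (adjusted p = 0.0115, limma), and the 3 arrays of line I lay above the 3 of line II. Both falls were measured against the same Mock arrays, so the test is that of line I against line II.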

How the results depend on the processing

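All 12 falls of the CXCR4 probe sets against Mock and Parental kept their sign and passed the test in 19 of 19 alternatives, and none of the called values of the 15 probe sets changed sign. Of 76 values not past the test 28 changed sign in some alternative. The count of member probe sets called in Mock against Parental, 0 in the reported fit, was 1 with arrays centred on the median, with single-symbol probe sets and with the upper 50% of probe sets, 2 with trended and robust variance, and 0 to 2 with an array left out. In line II against Mock it was 3 to 5 with an array left out, with 5 without the third array of line II. It was 0 for line I against line II with only those groups fitted, where the CXCR4 _at probe set, at 0.47, had an adjusted p from limma of 0.0546. That probe set passed in Mock against Parental, at 0.25, with trended and robust variance (adjusted p = 0.0457, limma), and had 0.22 to 0.29 with an array left out, passing without the first array of line II (adjusted p = 0.0310, limma). Same-numbered arrays did not deviate together (r of -0.08 to 0.16, beside -0.19 to 0.22 for other numbers), and the numbers share no stated batch. With a replicate block, 4 member probe sets were called in line II against Mock, the added one being CD74 209619_at (adjusted p = 0.0337, limma). Of 40 list counts, 11 moved by over 1.5 times under median centring, 15 under quantile normalization and 13 when probe sets of a gene were averaged. The cause was not tested. The number of arrays, 3 per group, limits the precision.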
